A study of Rattus norvegicus with 8 samples.

Results

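The 9 complement genes examined here, *C1qa*, *C1qb*, *C1qc*, *C1s*, *C2*, *C3*, *C3ar1*, *C5ar1* and *Serping1*, were measured in the ipsilateral *substantia nigra* (SN) of rats, the midbrain region that holds the dopaminergic neurons of the nigrostriatal tract. They were selected by name, as every probe other than controls whose RefSeq accession on the array belongs to 1 of the 9 symbols. This gave 11 of the 45598 probes, with 2 probes each for *C1s* and *C3ar1*, and 9 of the 16678 genes that could be named. The animals were female Sprague Dawley rats, 3 months old at the start. In the AAV-αSyn group, the SN of 1 side was injected with AAV6 encoding human α-synuclein of wild-type sequence, and in the AAV-Null group with AAV6 lacking it. Tissue was taken 20 weeks after surgery. Neither group was left uninjected, so both carry surgery and viral vector. The AAV-αSyn vector was given at 5.2e10 vg/µL and the null vector at 5.3e9 vg/µL, so that the transgene and the amount of vector cannot be told apart. The promoter that drives the transgene is not given in the sources used here. Each group has 4 arrays, all 8 of which were used, although the study's methods name fewer biological replicates per group.

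Complement is a cascade of plasma and tissue proteins that tags surfaces for removal. In the classical pathway, C1q binds a target and C1r activates C1s, the protease that cleaves C4 and C2, which leads to cleavage of C3, the step on which all routes of activation converge. Fragments of C3 and C5 act on the receptors encoded by *C3ar1* and *C5ar1*, and the C1 inhibitor encoded by *Serping1* blocks C1r and C1s. In the brain, microglia are the main source of C1q, and C1q and C3 are known for tagging synapses that microglia remove.

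RNA was labelled with Cy3 and hybridised to 8 Agilent arrays on 1 slide, read in 1 scan. Feature Extraction called 74.8% to 77.5% of spots well above background on each array, and the arrays' median intensities ran from 261 to 338. All 11 complement probes were well above background on all 8 arrays. Values are log2 of the intensity after quantile normalization between the arrays, and a difference is AAV-αSyn minus AAV-Null on that scale. *Th* and *Slc6a3*, which mark dopaminergic neurons, were above background on every array. The arrays of a group are treated here as tissue of different rats, which the sample labels do not state. Fewer cells of a type cannot be told apart from less RNA per cell in such samples.

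None of the 11 probes passed the test between the groups. After Benjamini–Hochberg adjustment over all 33853 probes tested with limma, 0 of 11 had an adjusted p under 0.05 (the lowest was 0.941), where 0.0148% of all probes tested did. Without the adjustment, 0 of 11 had a p under 0.05, where 5.69% of all probes did. The AAV-αSyn and AAV-Null arrays overlapped for all 11 probes, and did not overlap for 3.83% of all probes. With 1 probe per gene, the brightest, 7 of the 9 differences were positive and 2 were negative, from −0.27 for *C1qc* to 0.37 for *C5ar1*. Their median was 0.04, beside 0.02 over the 13648 genes tested, of which 7686 had a positive difference. Without AAV-αSyn replicate 1, *C1qb*, *C2*, *C3ar1* and *Serping1* turned negative, and the median of the 9 genes was −0.05. That median was 0.12 without AAV-αSyn replicate 4 and −0.01 with array quality weights. The median size of the difference regardless of sign was 0.19 for the 9 genes and 0.09 for all genes. This size was not recomputed without single arrays. Dropping AAV-αSyn replicate 1 made some differences smaller (*C3*, 0.26 to 0.03) and others wider (*C1qc*, −0.27 to −0.34). The median standard error was 0.17 for the 9 genes and 0.12 for probes above background on all arrays.

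**Figure D1:**
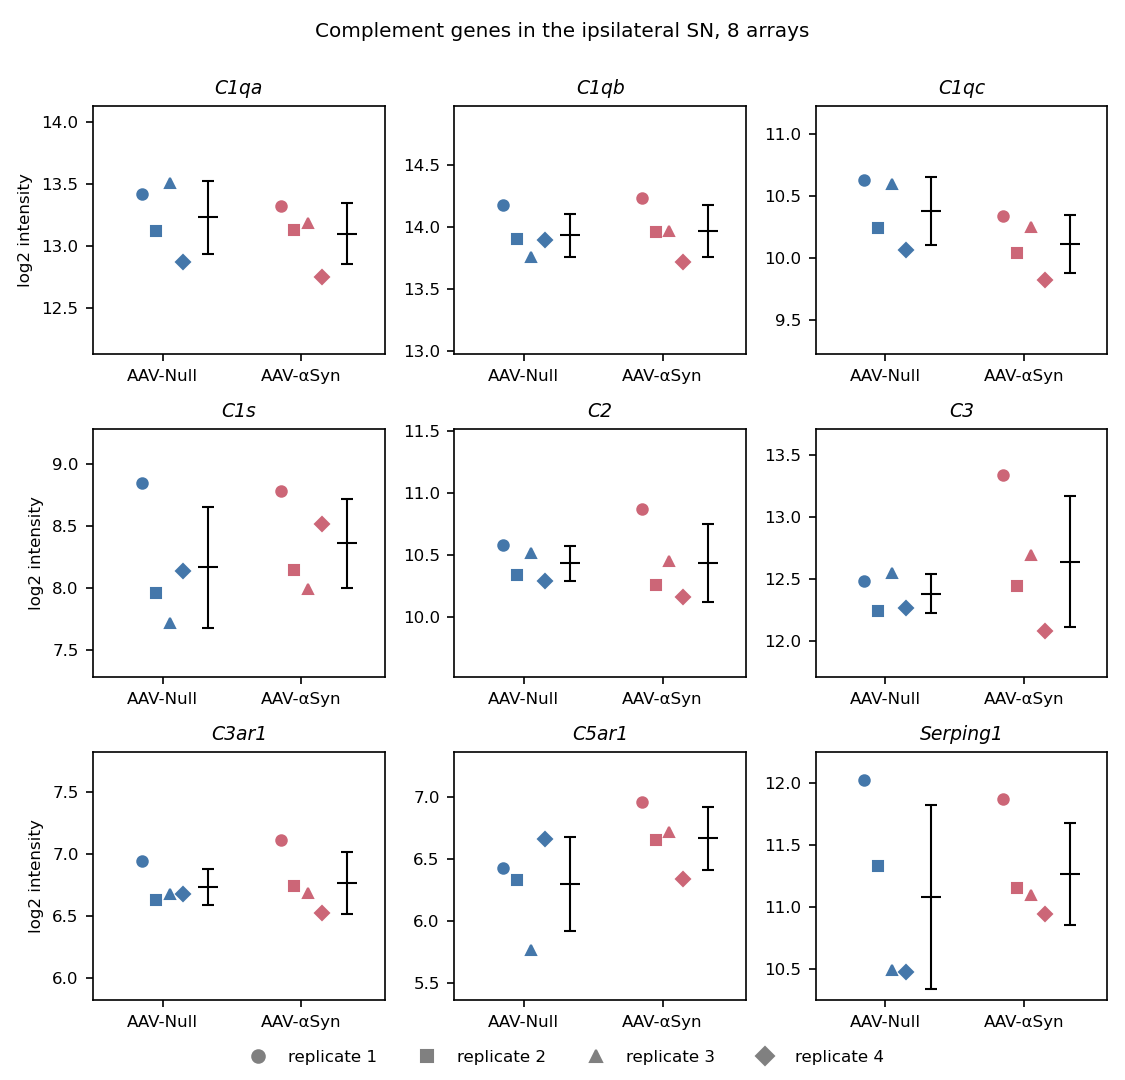
Log2 intensity (y axis, a span of 2 in every panel) of each complement gene on the 4 AAV-Null and 4 AAV-αSyn arrays, with the marker shape giving the replicate number and the bar beside each group its mean ± SD. The groups overlap in all 9 panels, and AAV-αSyn replicate 1 is the highest array of its group in each.

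None of the 3 genes for the chains of C1q, the recognition subunit of the classical pathway, passed the test. The differences of *C1qa* and *C1qc* were negative and that of *C1qb* was near 0. *C1qa* (A_44_P487761, NM_001008515), the A chain, was at log2 intensities, given here and for the other genes in the order of replicates 1 to 4, of 13.42, 13.12, 13.51 and 12.87 with AAV-Null and of 13.33, 13.13, 13.19 and 12.75 with AAV-αSyn. Its highest array was an AAV-Null array and its lowest an AAV-αSyn array, with the rest interleaved. The difference was −0.13 (standard error 0.17, 95% interval −0.53 to 0.27). The exact permutation test gave p = 0.514 (two-sided). Leaving out single arrays moved the difference, to −0.25 where AAV-Null replicate 4 was dropped, −0.04 for AAV-Null replicate 3 and −0.02 for AAV-αSyn replicate 4.

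*C1qb* (A_64_P045476, NM_019262), the B chain, was at 14.18, 13.91, 13.76 and 13.90 in the AAV-Null group and at 14.24, 13.96, 13.97 and 13.72 in the AAV-αSyn group. The highest and the lowest array were both AAV-αSyn arrays. The difference of 0.04 (standard error 0.13) had a 95% interval of −0.26 to 0.34, so the bounds lie at 0.833-fold and 1.27-fold, the narrowest interval among the 9 genes. An exact permutation test returned p = 0.686 (two-sided). The sign of *C1qb* rested on single arrays, as the difference was −0.05 without AAV-αSyn replicate 1 and −0.02 without AAV-Null replicate 3, and all 3 chains were then negative.

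*C1qc* (A_44_P500708, NM_001008524), the C chain, was at 10.63, 10.24, 10.60 and 10.07 in the AAV-Null group and at 10.34, 10.04, 10.25 and 9.83 in the AAV-αSyn group. Replicates 1 and 3 were the higher arrays in both groups, and no AAV-αSyn array lay above the whole AAV-Null range. This was the lowest of the 9 differences, −0.27 (standard error 0.16, 95% interval −0.65 to 0.11, adjusted p = 0.958 from limma's test). The exact permutation test, two-sided, gave p = 0.2 for this gene. Without AAV-Null replicate 4 the difference was −0.37, with an unadjusted p of 0.0497 and an adjusted p of 0.604 from limma's test. It was −0.17 without AAV-αSyn replicate 4 and −0.19 without AAV-Null replicate 1. Averaged over the 3 chains, the AAV-Null arrays gave 12.52 ± 0.21 (SD, n = 4) and the AAV-αSyn arrays 12.40 ± 0.22 (SD, n = 4), a difference of −0.12 that lay between −0.02 (without AAV-αSyn replicate 4) and −0.20 (without AAV-αSyn replicate 1 or AAV-Null replicate 4) when single arrays were dropped, with −0.05 for AAV-Null replicate 1.

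Between arrays, *C1qa* and *C1qc* rose and fell together, and *C1qb* had a lower correlation with both. *C1qa* and *C1qc* had r = 0.94 (exact permutation p = 0.00112, adjusted p = 0.021 over the 36 pairs of the 9 genes) and rho = 0.90 (exact p = 0.00456, adjusted p = 0.0548) over the 8 arrays. Without the 2 arrays farthest from the median of *C1qa*, r was 0.85, and with each group centred on its mean it was 0.97. *C1qa* and *C1qb* had r = 0.46 (exact permutation p = 0.248, adjusted p = 0.371) and rho = 0.48 (exact p = 0.243, adjusted p = 0.365). Here r was 0.85 without the 2 arrays farthest from the median of *C1qa*. AAV-Null replicate 3, which had the highest *C1qa* and the lowest *C1qb* of its group, is 1 of these 2 arrays. *C1qb* and *C1qc* had r = 0.43 (exact permutation p = 0.285, adjusted p = 0.39) and rho = 0.52 (exact p = 0.197, adjusted p = 0.337), and r was −0.01 without the 2 arrays farthest from the median of *C1qb*. Whether these correlations differ from that of *C1qa* with *C1qc* was not tested. Each of *C1qa* and *C1qb* is spotted 10 times on an array, and the SD between these spots was 0.022 to 0.050 for *C1qa* and 0.025 to 0.052 for *C1qb*, below the SD between arrays of 0.26 and 0.18.

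**Figure D2:**
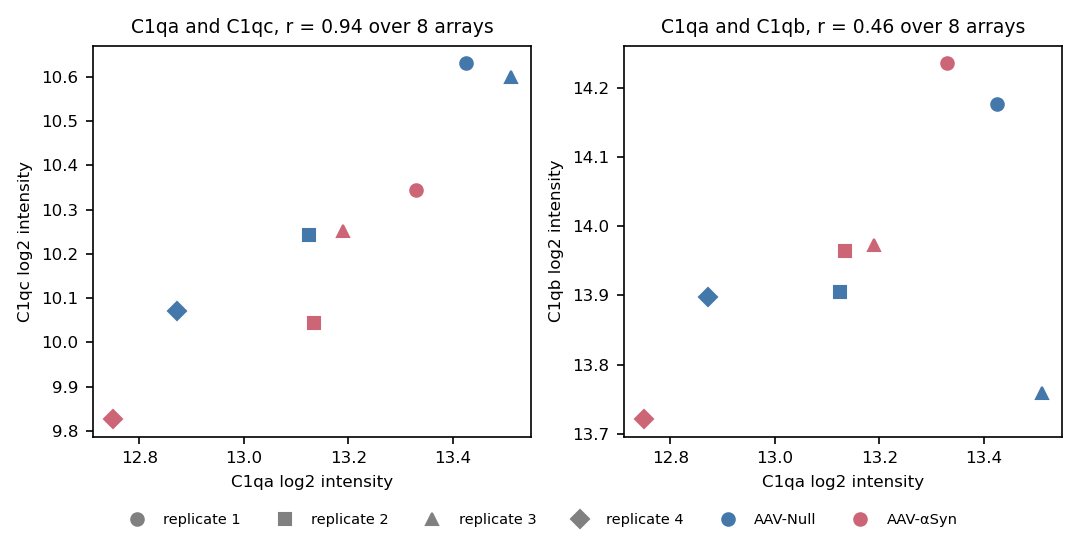
Log2 intensity of *C1qc* (left) and *C1qb* (right) against that of *C1qa* on the 8 arrays, with colour giving the group and marker shape the replicate number. The points on the left lie near a line (r = 0.94), and on the right AAV-Null replicate 3 sits low (r = 0.46 over all 8 arrays).

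The 3 C1q genes lie next to each other in the rat assembly GRCr8, with 0 other genes of the RefSeq table between them. Upstream sequences from RefSeq were found for 4 of the 9 genes, *C1qa*, *C1qb*, *C3* and *C3ar1*. The 250 bases before the start of *C1qa*, *C1qb* and *C3ar1* are shown because of 2 correlations over the 8 arrays. *C1qb* had r = 0.93 with the brighter probe of *C3ar1*, a gene on another chromosome. With its neighbour *C1qa*, r was 0.46 (exact permutation p = 0.248, adjusted p = 0.371). Whether these correlations differ was not tested. All are on the minus strand of GRCr8, at chr5:154419934-154420183 for *C1qa*, chr5:154407828-154408077 for *C1qb* and chr4:157756531-157756780 for *C3ar1*, and are written 5′ to 3′ in the direction of the gene. Capitals mark matches, on either strand, to GGAAGT or GAGGAA, core letters of sites for ETS-family factors, the family of the myeloid factor PU.1, which share letters and can overlap. These motifs were picked after the sequences had been read.
*C1qa* upstream: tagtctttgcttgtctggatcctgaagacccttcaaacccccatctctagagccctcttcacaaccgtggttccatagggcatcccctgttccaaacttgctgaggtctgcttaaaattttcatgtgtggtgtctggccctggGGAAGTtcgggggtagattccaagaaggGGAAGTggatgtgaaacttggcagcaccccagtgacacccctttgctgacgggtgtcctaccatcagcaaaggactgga
*C1qb* upstream: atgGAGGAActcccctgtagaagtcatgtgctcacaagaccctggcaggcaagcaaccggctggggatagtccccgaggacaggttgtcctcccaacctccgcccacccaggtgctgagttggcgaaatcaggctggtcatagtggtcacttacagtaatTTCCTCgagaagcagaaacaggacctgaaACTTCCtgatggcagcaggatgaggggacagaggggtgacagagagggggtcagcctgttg
*C3ar1* upstream: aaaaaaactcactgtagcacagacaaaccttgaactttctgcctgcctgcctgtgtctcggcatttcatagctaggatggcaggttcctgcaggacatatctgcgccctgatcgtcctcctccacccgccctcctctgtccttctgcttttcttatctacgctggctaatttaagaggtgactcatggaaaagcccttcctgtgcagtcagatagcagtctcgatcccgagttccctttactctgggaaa

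The *C1qa* sequence held GGAAGT at 2 places, both on the gene's strand, and GAGGAA at 0. The *C1qb* sequence held GGAAGT at 1 place, on the opposite strand, and GAGGAA at 2, with 1 on each strand. The *C3ar1* sequence, like that of *C3*, held neither. Of the 33469 upstream sequences of this length in the table, 19.2% held GGAAGT and 23.3% held GAGGAA, so that a match is common. A match describes the letters and is not evidence of a bound site, and absence says only that these letters are not in this window.

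*C1qb* and *C3ar1* had r = 0.93 (exact permutation p = 0.00117, adjusted p = 0.021) and rho = 0.90 (exact p = 0.00456, adjusted p = 0.0548). Without the 2 arrays farthest from the median of *C1qb*, r was 0.71. Correlations with *C3ar1* used its brighter probe. Those of its dimmer probe, which ordered the AAV-Null arrays differently, were not computed. For *C2* with *C3*, r was 0.91 (exact permutation p = 0.00362, adjusted p = 0.0333) and rho was 0.81 (exact p = 0.0218, adjusted p = 0.144). For *C2* with *C3ar1*, r was 0.89 (exact permutation p = 0.0037, adjusted p = 0.0333) and rho was 0.64 (exact p = 0.0962, adjusted p = 0.247). Without 2 arrays these fell to 0.57 and 0.55, so both rest in part on those arrays, and no other of the 36 pairs had an adjusted p under 0.05 for r. For rho, none of the 36 did, while *C1qa* with *C1qc*, *C1qb* with *C3ar1*, and *C1qc* with *C2* shared its lowest adjusted p of 0.0548.

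For *C1s* and *C2*, which encode proteases that act after C1q, the difference between the groups was smaller than its standard error in the main fit, which has no block. *C1s* (A_44_P332422, NM_138900) was at 8.85, 7.96, 7.71 and 8.14 in the AAV-Null group and at 8.78, 8.14, 7.99 and 8.52 in the AAV-αSyn group. Replicate 1 was the highest array of both groups, and no AAV-αSyn array lay above all AAV-Null arrays. The difference was 0.19 (standard error 0.27, 95% interval −0.42 to 0.81), with p = 0.571 in the exact permutation test (two-sided). Its second probe (A_44_P1085844) gave 0.17 (standard error 0.25), within the error of the first. Without AAV-Null replicate 1 the value was 0.42, whereas dropping AAV-Null replicate 3 gave 0.04 and dropping AAV-αSyn replicate 1 gave 0.05. With replicate number as a block, limma gave *C1s* an unadjusted p of 0.109 and an adjusted p of 0.8225.

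*C2* (A_44_P332606, NM_172222), which encodes the protease part of the classical C3 convertase, was at 10.58, 10.34, 10.51 and 10.29 in the AAV-Null group and at 10.87, 10.26, 10.46 and 10.16 in the AAV-αSyn group. AAV-αSyn arrays held both the highest and the lowest value. Among the 9 genes the difference was the closest to 0, at 0.0047 (standard error 0.16, 95% interval −0.36 to 0.37), and its sign changed with the processing. The exact permutation test gave p = 1 (two-sided).

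*C3* (A_44_P1023538, NM_016994), the central component, was at 12.49, 12.24, 12.55 and 12.27 in the AAV-Null group and at 13.34, 12.45, 12.70 and 12.09 in the AAV-αSyn group. AAV-αSyn replicate 1 stood above the other 7 arrays, and AAV-αSyn replicate 4 was the lowest of all 8. The SD was 0.15 in the AAV-Null group and 0.53 in the AAV-αSyn group (n = 4 arrays each). The difference was 0.26 (standard error 0.24, 95% interval −0.30 to 0.82, exact permutation test, two-sided, p = 0.486). Without AAV-αSyn replicate 1 it was 0.03, and without AAV-αSyn replicate 4 it was 0.44. *Cd74*, the invariant chain of MHC class II and a marker of activated microglia and macrophages, also had its highest value, 13.86, on AAV-αSyn replicate 1, where the other 7 arrays lay between 10.84 and 12.17. *Cd74* was picked after its values were seen, and AAV-αSyn replicate 1 was the highest array of its group for 4 of the 10 activated markers tested, while *Axl* and *Gpnmb* were at their lowest in the group on it. The part of activated microglia or macrophages in the *C3* value was not tested.

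Of the receptors for the released fragments, *C5ar1* showed the widest difference of the 9 genes. *C5ar1* (A_42_P572521, NM_053619), the C5a receptor of myeloid cells, was at 6.43, 6.33, 5.77 and 6.67 in the AAV-Null group and at 6.96, 6.65, 6.72 and 6.34 in the AAV-αSyn group. Only 2 AAV-αSyn arrays lay above all AAV-Null arrays, and AAV-Null replicate 3 was the lowest of all 8. The difference was 0.37 (standard error 0.21, 95% interval −0.10 to 0.84), or 1.29-fold, with an adjusted p of 0.941 from limma's test, and was 0.24 with normexp background correction. In the exact permutation test, two-sided, p was 0.2. Without AAV-Null replicate 3 the difference was 0.20, and without AAV-Null replicate 4 it was 0.49, with an unadjusted p of 0.0458 and an adjusted p of 0.597 from limma's test.

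*C3ar1* (A_44_P1105125, XM_006237314), the C3a receptor, was at 6.95, 6.63, 6.67 and 6.68 in the AAV-Null group and at 7.12, 6.74, 6.68 and 6.53 in the AAV-αSyn group. Replicate 1 was the highest array of both groups. The brighter probe gave a difference of 0.04 (standard error 0.14, 95% interval −0.28 to 0.35, exact permutation test, two-sided, p = 0.743), and its sign turned to −0.08 without AAV-αSyn replicate 1. The dimmer probe (A_64_P166460, NM_032060) gave 0.23 (standard error 0.19, 95% interval −0.21 to 0.67). Its AAV-Null values were 4.84, 4.71, 5.03 and 5.15, and its AAV-αSyn values were 5.60, 5.32, 4.96 and 4.77. The probes thus ordered the AAV-Null arrays differently, and whether their differences differ was not tested.

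*Serping1* (A_64_P080025, NM_199093), the C1 inhibitor, was at 12.02, 11.33, 10.49 and 10.48 in the AAV-Null group and at 11.87, 11.15, 11.10 and 10.95 in the AAV-αSyn group. The AAV-αSyn arrays all lay inside the AAV-Null range. The spread within groups was the widest of the 9 genes, with a pooled SD of 0.60, and the difference of 0.19 (standard error 0.37) had a 95% interval of −0.67 to 1.04, from 0.63-fold to 2.05-fold. The exact permutation test gave 0.629 as its p (two-sided). Without AAV-Null replicate 1 the difference was 0.50, and without AAV-Null replicate 3, AAV-Null replicate 4 or AAV-αSyn replicate 1 it was −0.01.

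**Figure D3:**
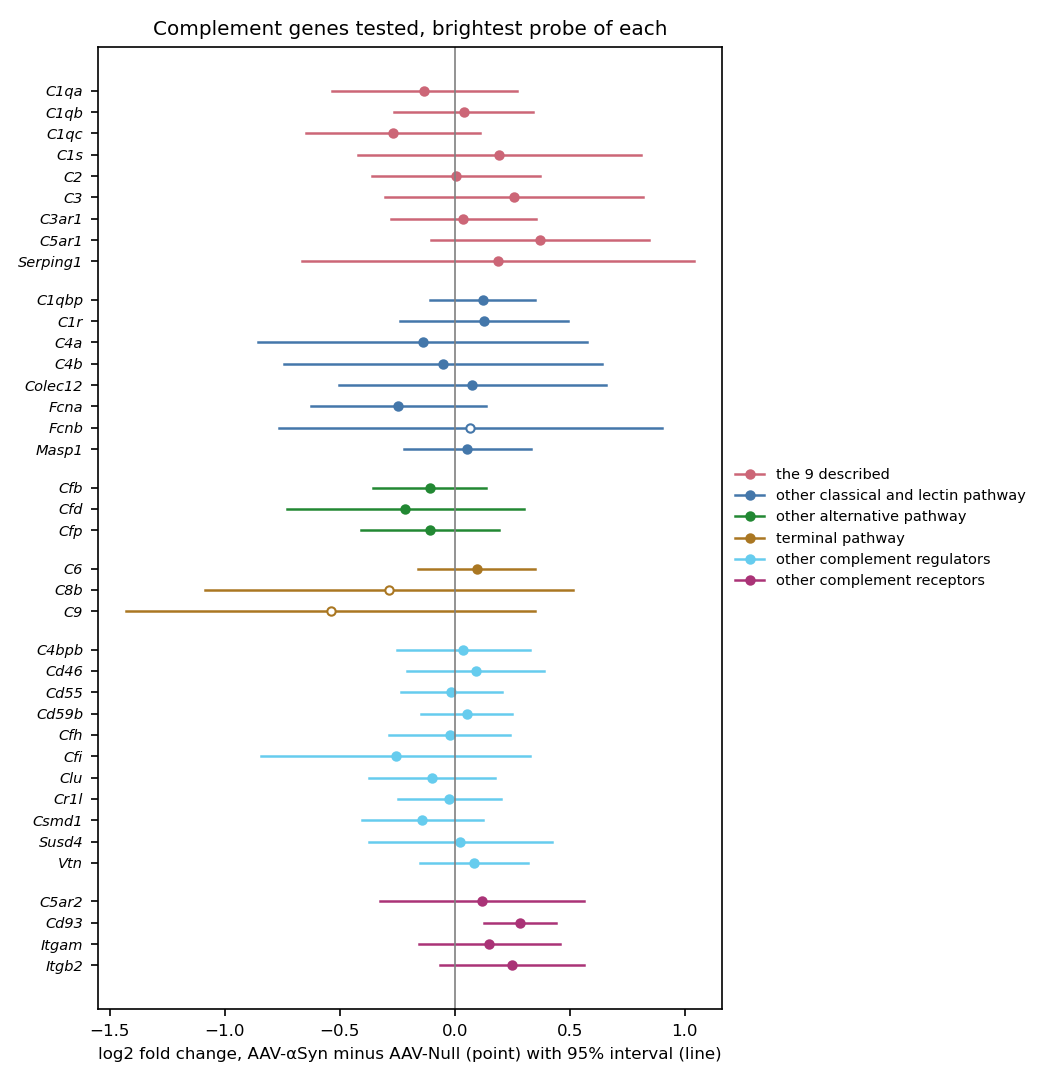
Log2 fold change, AAV-αSyn minus AAV-Null (x axis), of the 9 complement genes and of 29 further complement genes, with lines for the 95% interval and open points for probes not above background on all 8 arrays. The intervals of all 9 genes include 0, and that of *Cd93* is the only one of the 29 that does not.

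The complement genes varied more between arrays of a group than most probes did. The pooled SD within groups was between 0.19 (*C1qb*) and 0.60 (*Serping1*), with a median of 0.27, and was above the median of all probes measured on every array, 0.17, for 9 of 9 genes. AAV-αSyn replicate 1 was the highest array of its group for 9 of 9 genes, where this array was the highest for 26.7% of 29656 probes. AAV-αSyn replicate 4 was the lowest of its group for 8 of 9, against 22.2% of probes. In the AAV-Null group, replicate 1 was the highest array for 6 of 9 genes, against 19.7% of probes. AAV-αSyn replicate 1 was the highest of its group for 13 of the 29 other complement genes tested, from 2 of 11 regulators to 6 of 8 classical and lectin pathway genes. Among the marker lists the count ran from 0 of 7 dopaminergic markers through 2 of 9 astrocyte and 6 of 12 microglial markers to 6 of 8 fibroblast markers. Since the 9 genes were measured on the same RNA and several rose and fell together, these counts are not 9 independent observations.

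Arrays of the same replicate number lie in 1 row of the slide, per the file headers, and each row holds 1 array of each group. The number, or row, took a median of 84.4% of the sum of squares between arrays for the 9 genes and 49.4% over the probes measured on all arrays, while the group took 6.40% and 8.41%. *C5ar1* was the exception, with 22.4% for the row and 30.4% for the group. For *C1qc* the shares were 71.5% and 27.3%. Within the 4 rows, *C1qc* differed by −0.29, −0.20, −0.35 and −0.24. How many of all probes keep 1 sign in all 4 rows was not counted, so this sign does not set *C1qc* apart. With the row as a block, *C1qc* had an adjusted p of 0.652 from limma's test (0.0129 before adjustment, where 6.52% of all probes were under 0.05). What sets the shared part of a row was not tested.

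**Figure D4:**
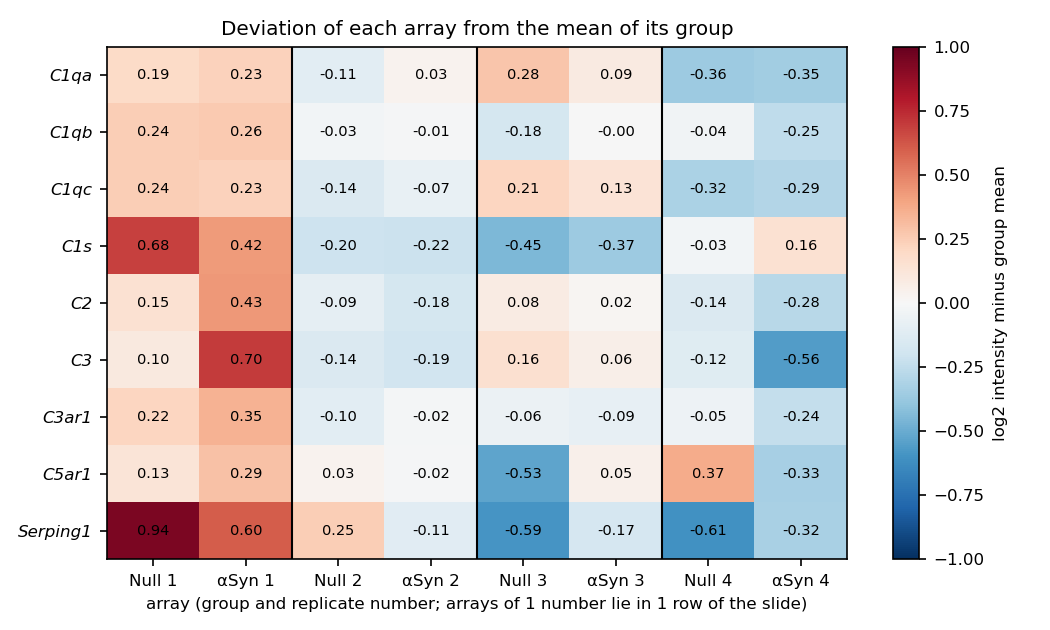
Log2 intensity of each gene minus the mean of its group, in colour and as numbers, for the 8 arrays ordered by replicate number (row of the slide). AAV-Null replicate 1 and AAV-αSyn replicate 1 are above their group mean for all 9 genes, and AAV-αSyn replicate 4 is below it for all but *C1s*.

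The rest of the pathway was read from a list of 46 further complement genes, of which 38 had a named probe and 29 were above background on at least 1 array. Of these 29, 15 differences were positive and 14 negative, with a median of 0.02. With limma, 0 had an adjusted p under 0.05, and 1 had an unadjusted p under 0.05. This was *Cd93* (A_43_P12791, NM_053383), a C-type lectin-like membrane protein of endothelial and myeloid cells that was first described as a C1q receptor. It was at 10.30, 10.26, 10.36 and 10.19 on the AAV-Null arrays and at 10.58, 10.55, 10.60 and 10.51 on the AAV-αSyn arrays. Every AAV-αSyn array lay above every AAV-Null array, as was the case in either direction for 3.83% of all probes tested. Its difference was 0.28 (standard error 0.068, 95% interval 0.13 to 0.44), with an adjusted p of 0.59 from limma's test (0.00297 before adjustment). For 4 arrays against 4, 0.0286 is the smallest p an exact permutation test can give (two-sided), and *Cd93* reached it.

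By role, the further classical and lectin pathway genes had 5 positive and 3 negative differences among 8 tested, including 0.13 (standard error 0.16) for *C1r*, the protease that acts with C1s. *C4a* and *C4b*, at −0.14 and −0.05, are near-identical copies whose probes may share signal, so both values are uncertain. All 3 alternative pathway genes had negative differences, with *Cfd*, or factor D, at −0.21 (standard error 0.22). The 11 further regulators had 5 positive and 6 negative differences, with *Cfi*, the protease that cuts C3b, at −0.26 (standard error 0.25). All 4 further receptor genes were positive, with *Itgb2*, the shared β chain of complement receptors 3 and 4, at 0.25 (standard error 0.14). *Fcna*, a ficolin of the lectin pathway, was at −0.25 (standard error 0.17). With the exception of *Cd93*, these genes had unadjusted p-values above 0.05 in limma's test. Of the 3 terminal pathway genes tested, *C6* was above background on all 8 arrays, *C9* on 3 and *C8b* on 1. The differences of *C9* and *C8b*, −0.54 (standard error 0.39) and −0.29 (standard error 0.35), are the widest of the 29 and rest on probes that were mostly not well above background.

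Markers of the cells that make complement were read beside these values. All 12 microglial markers were above background on all 8 arrays, with a mean level per array between 10.79 and 10.99 in the AAV-Null group and between 10.86 and 11.08 in the AAV-αSyn group. Their median difference was 0.08, and 0 of 12 had an unadjusted p under 0.05. For 10 markers of activated microglia and macrophages the median was 0.30, with mean levels of 9.86 to 10.36 and 10.05 to 10.65 and again 0 under 0.05. That median was 0.15 where AAV-αSyn replicate 1 was dropped, 0.16 for AAV-Null replicate 3 and 0.20 for AAV-Null replicate 4. The microglial median fell to 0.01 on dropping AAV-αSyn replicate 1 and rose to 0.16 on dropping AAV-Null replicate 1. The 9 astrocyte markers had a median of −0.0049 and mean levels of 12.86 to 13.34 and 13.05 to 13.22, and 0 were under 0.05. Their median was −0.07 without AAV-Null replicate 3 and 0.05 without AAV-Null replicate 1. The 6 endothelial markers had a median of 0.07, with the 5 other than *Kdr* between 0.04 and 0.08. That median was 0.04 without AAV-Null replicate 3 or AAV-αSyn replicate 1, and 0.10 without AAV-Null replicate 4. *Kdr*, a VEGF receptor, had an unadjusted p under 0.05 (difference 0.27, adjusted p = 0.772 from limma's test, 0.0184 before adjustment), and it did not overlap between the groups, as *Cd93* did not. The part of endothelial cells in the *Cd93* value was not tested. Among 7 dopaminergic markers 4 had an unadjusted p under 0.05, all lower in the AAV-αSyn group, with differences of −0.52 for *Th*, −0.79 for *Slc6a3*, −0.78 for *Pitx3* and −0.25 for *Ddc*. *Ddc* did not pass without AAV-Null replicate 1 (unadjusted p = 0.0712 from limma's test) or without AAV-αSyn replicate 1, 2 or 3 (0.0785, 0.0751 and 0.0701). Nor did *Ddc* pass with replicate number as a block in limma (unadjusted p = 0.0636). The lowest adjusted p of these 4 dopaminergic markers was 0.477 from limma's test in the main fit.

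Across the 8 arrays, the genes whose values were most like the mean of *C1qa*, *C1qb* and *C1qc* had r between 0.87 and 0.90, the highest among 12588 named genes. In order they were *Rps2-ps44*, *RT1-DMb*, *Gimap6*, *Mical1*, *Arpp21*, *Usp12*, *Inpp5d*, *S100a13*, *2810025M15Rikl* and *Cldn19*. *RT1-DMb* encodes a chain of an MHC class II chaperone and *Inpp5d* a lipid phosphatase of blood and myeloid cells, whereas *Arpp21* encodes a neuronal phosphoprotein. *RT1-DMb* was at 10.19, 9.97, 10.42 and 9.79 in the AAV-Null group and at 10.25, 10.00, 10.22 and 9.64 in the AAV-αSyn group, with replicate 4 the lowest in both. With this many candidates and 8 arrays, such values are a description of these arrays. All 10 had adjusted p-values above 0.05 between the groups in limma's test.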

How the data were processed

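Cy3-labelled cRNA from the ipsilateral SN was hybridised to Agilent arrays in 1 colour. The authors deposited scanner files with a background-corrected intensity per spot, and a table of quantile-normalized log2 values. The file headers give Feature Extraction 12.0.3.2, where the submitters' processing notes give 11.5.1.1. The intensities were taken to log2, without control spots and outliers, quantile normalized and averaged by probe with R 4.3.3 and limma 3.58.1. A probe entered the test, by lmFit and eBayes, two-sided, if 1 or more arrays had at least 0.5 of its spots called well above background, with Benjamini–Hochberg adjustment over all 33853 probes and a threshold of 0.05. Exact permutation tests used all 70 splits of 8 arrays into 4 and 4 for differences and all 40320 orders of the 8 arrays for correlations. The procedure was tested on simulated data. Accessions were named through a RefSeq table of GRCr8, which matched 21229 of 45598 probes. Upstream sequences are from RefSeq (GRCr8).

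The genes named are the 9 complement genes (brightest probe for the gene), other complement genes with unadjusted p under 0.05, groups that do not overlap or the 5 largest differences among those above background on all arrays, marker genes with unadjusted p under 0.05 (at most 4 a list), and the 10 genes most like the C1q mean. *Cd74*, *Axl*, *Gpnmb*, *C1r*, *C4a*, *C4b*, *C6*, *C8b* and *C9* were added after their values were seen. The members and the lists were chosen with earlier results of these data known. Marker lists of microglia, activated microglia, perivascular myeloid cells, astrocytes, oligodendrocytes, endothelium, fibroblasts, choroid plexus, blood and dopaminergic neurons were read. Those not described in the results had 0 genes with unadjusted p under 0.05: perivascular myeloid (7 tested, median difference −0.10), oligodendrocyte (7, 0.05), fibroblast (8, −0.0037), choroid plexus (5, 0.02) and blood (4, −0.24). Alternatives were scaling by the 75th percentile or cyclic loess, normexp with an offset of 50, other filters on dim probes (none, 4 or 8 arrays), the deposited matrix, other variance models, blocks for replicate number and slide column, and leaving out each array. The number of arrays limits the precision. The p-values of limma set a difference against the spread between arrays of a group, and the exact ones set it against other arrangements of the arrays.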

Additional observations from a re-analysis of the deposited data

Results flagged for a closer look

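For *C3ar1* (A_44_P1105125), AAV-Null replicate 1 was far from the other 3 arrays of its group. Its gap to the nearest array was 0.84 of the range of the group, above Dixon's 95% critical value for 4 arrays. Of 34 groups of arrays examined 1 stood out, and chance gives about 1.7. Without this array the difference was 0.11, against 0.04 with it.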

How the results depend on the processing

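Over 20 alternatives, the 9 genes gave 180 values, of which 166 kept their direction, 14 reversed, and 0 had an adjusted p under 0.05 (the lowest was 0.434). The count of complement probes with an unadjusted p under 0.05 was 0, rising to 1 with the replicate block and ranging from 0 to 2 when single arrays were left out, with 2 of 11 without AAV-Null replicate 4. Over all probes the share was 6.52% with the block and 8.26% without that array. Over the other complement genes this count was 1, and became 2 with 75th percentile scaling, 3 with array quality weights (where 13.3% of all probes were under 0.05), 3 with the replicate block and 1 to 2 without single arrays. Over all markers of the lists, whose numbers tested are given with each list, it was 5, where 5.69% of all probes were under 0.05. It became 8 with the replicate block (6.52% of all probes) and 4 to 9 without single arrays. The 9 came without AAV-Null replicate 3 or 4, where 8.14% and 8.26% of all probes were under 0.05. The median of the 9 genes, 0.04, was −0.01 with array weights and between −0.05 and 0.12 without single arrays. *C2* turned to −0.012 with cyclic loess and −0.013 with array weights, *C1qb* to −0.014 and *Serping1* to −0.17 with array weights. Without single arrays the ranges were −0.049 to 0.12 for *C1qb*, −0.14 to 0.10 for *C2*, −0.080 to 0.12 for *C3ar1* and −0.015 to 0.50 for *Serping1*. The causes were not tested. *C1s* was 0.12 with array weights and *C5ar1* 0.24 with normexp. *C1qa* ranged from −0.25 to −0.02. *Cd93* had an unadjusted p between 0.000327 and 0.012 in all 20 limma fits, with an adjusted p of at least 0.127.

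Replicate numbers were not treated as pairs, since the deviations of same-numbered arrays correlated at 0.098, 0.16, 0.20 and 0.0066 over probes, not all above 0.1. That rule was read over all probes, whereas for the 9 genes the row took a median of 84.4% of the sum of squares. The main standard errors and p-values of these genes therefore include the spread between rows. With the replicate block in limma, *Ddc* had an unadjusted p of 0.0636 and *C1qc* one of 0.0129 and an adjusted p of 0.652. The unadjusted p in limma went from 0.469 to 0.181 for *C1qa* and from 0.488 to 0.109 for *C1s*. For *C5ar1* it rose from 0.108 to 0.149. Over all probes the count with an adjusted p under 0.05 went from 5 to 0 (9 with array weights, and 3 to 5 without single arrays). The counts over all probes with an unadjusted p under 0.05 were 1927, and 4497 with array weights.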
